A study of Mus musculus with 25 samples.

Results

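Cluster 12 is a group of monocyte-like cells that the authors separated among the myeloid cells sorted from the injured mouse spinal cord. Its members are the cells with cluster code 12 and cell type code 2 in the deposited cell table, joined by barcode to the count table of each library. They number 2043, which is 15.9% of the 12841 cells of cell type 2 (monocytes and macrophages) and 6.60% of all 30958 cells. The deposited codes have no names, so the cluster was named from its leading genes against the other cells of cell type 2 and from marker lists.

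Monocytes leave the bone marrow through the blood and enter injured tissue, where they differentiate into macrophages. Classical monocytes of the mouse carry Ly6C and the chemokine receptor CCR2 and enter inflamed sites, whereas patrolling monocytes carry little Ly6C and stay along the vessel wall. Macrophages that take up myelin debris in the injured cord acquire lysosomal enzymes and lipid-handling proteins.

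The study held 25 droplet libraries of myeloid cells from a 5 mm segment around a spinal cord injury, or around a laminectomy alone (Ctrl), with 1 to 3 mice per library. Injured cords were taken after 1, 2, 3, 10 or 21 days, called D1, D2, D3, D10 and D21. Infiltrating-sort (RFP-/YFP+) and resident-sort (RFP+/YFP+) libraries came from mice of the strain Cx3cr1CreERT2:R26tdTomato. Mixed-sort libraries (all YFP+ cells) came from the strain Cx3cr1CreERT2, which lacks the red reporter, so sort and strain cannot be told apart. Cre is driven from the Cx3cr1 locus, and both strains, Ctrl included, carry it. Libraries are named here by time point, sort and a number within the group. The sex label was female for D1_infiltrating 1, D2_infiltrating 1 and D3_conflict 1, and male for D1_infiltrating 2, D2_mixed 2 and D3_infiltrating 1. The ages of the mice are not given in the sources used here. D3_conflict 1 is titled infiltrating but its sort label is RFP+/YFP+, and its deposited sort code is that of the infiltrating libraries. D2_infiltrating 1 is labelled female and carries the deposited sex code of the male libraries.

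A set of 6 libraries held 2005 of the 2043 cells: D1_infiltrating 1 and 2, D2_infiltrating 1, D2_mixed 2, D3_conflict 1 and D3_infiltrating 1. Each gave 470730 to 7115391 UMIs summed over 51 to 786 cells. Median depth per cell ran from 7519 to 11261 UMIs. The median mitochondrial share of the cluster's cells was 0.371% in D3_infiltrating 1 and 1.03% to 1.89% in the other 5 libraries. No cell barcode was shared between 2 of its cells in different libraries, although 10 of the 127 barcodes that occur in 2 libraries touch 1 of its cells. Over 5095 genes at a mean of 20 CPM (UMIs of a gene scaled to a common total per library) or more, the summed profiles of the 6 libraries correlated at Pearson r of 0.895 to 0.987. The pair with the highest r was D1_infiltrating 1 and D3_conflict 1 (0.987), followed by D1_infiltrating 2 and D2_infiltrating 1 (0.975). For these 4 libraries the nearest library was thus one of another time point. D1_infiltrating 1 and D1_infiltrating 2 correlated at 0.960. All 4 were sequenced in the same deposited pool, and within each of the 2 nearest pairs the deposited sex code was the same.

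The cluster was found mainly at D1 to D3, which held all but 9 of its 2043 cells. It made up 39.2% of the cell type 2 cells in D1_infiltrating 1 (95% Wilson interval 36.5% to 41.9%, 497 of 1269) and 9.71% in D1_infiltrating 2 (8.45% to 11.1%, 183 of 1885). At D2 its share was 24.7% in D2_infiltrating 1 (21.1% to 28.8%, 118 of 477) and 7.91% in D2_mixed 2 (6.06% to 10.2%, 51 of 645). At D3 it was 33.2% in D3_conflict 1 (31.3% to 35.1%, 786 of 2367) and 22.8% in D3_infiltrating 1 (20.8% to 24.9%, 370 of 1622). The 2 libraries of D1 lay above and below 3 of the other 4 libraries, and the intervals cover counting error only.

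The mixed-sort library with the most cell type 2 cells, D3_mixed 3, held 10 of its cells among 3019 (0.331%). At D10 the 5 libraries held 9 of its cells among 920 of cell type 2 (0.978%). At D21 none of 167 and in the Ctrl libraries none of 1887 cells of any type was a member. A count of 0 among the 1887 Ctrl cells allows a share of up to 0.159%, and these libraries held no cell of cell type 2 from any cluster. They were Ctrl_mixed 1 and Ctrl_resident 1, with no Ctrl library of the infiltrating sort, so the limit covers only the sorts sampled. The shares were not tested between time points, because sort, strain and sequencing pool differ between the libraries.

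**Figure D1:**
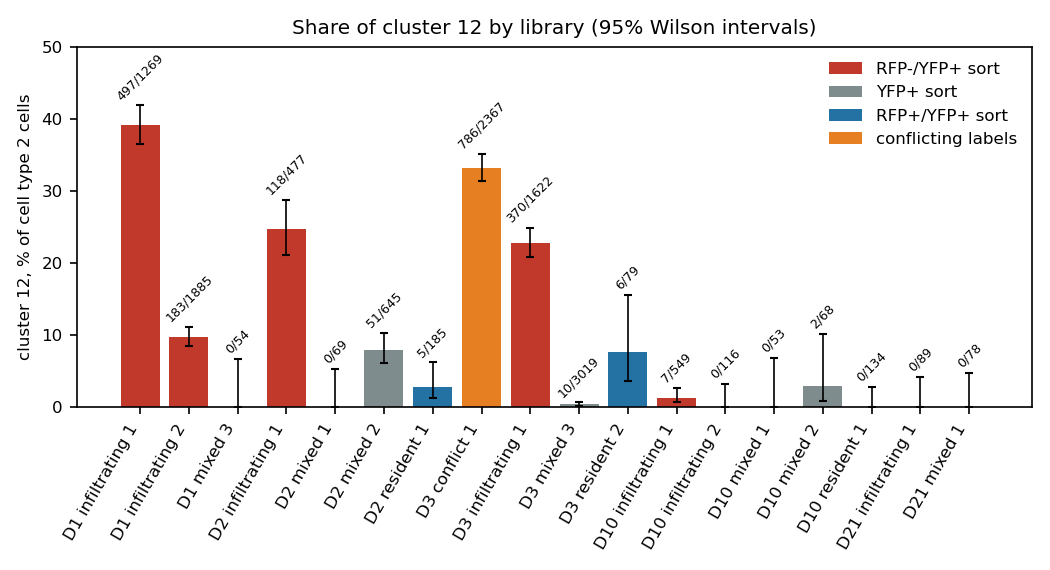
Share of cluster 12 among the cell type 2 cells of each library with at least 50 such cells, in percent (vertical axis, from 0), ordered by time point and coloured by sort. Bars give the share, whiskers the 95% Wilson interval, and numbers above the whiskers the cells behind it. The 6 libraries with at least 20 of its cells span 7.91% to 39.2%, and no library of D10 or D21 exceeds 2.94%.

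The leading genes name a classical monocyte-like state. For each gene the level in the cluster was set against the level in the other cell type 2 cells of the same library, as a log2 ratio of CPM with 5 CPM added to both. The median over the 6 libraries ranks the genes. These ratios are a description with no test, since the cells were clustered on the same counts. Over the 5572 genes at 20 CPM or more in either population the median ratio was -0.02, and 26.3% of genes were higher and 27.0% lower in 6 of 6 libraries. The 10 most abundant genes of the other cells took 18.0% of their UMIs and 7.93% of those of the cluster, a difference in makeup that enters every CPM ratio.

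The gene with the highest ratio was Il1b, which encodes the inflammatory cytokine interleukin-1 beta (chr2:129364570-129371139, minus strand, GRCm38). Its level in the cluster was 621 and 1111 CPM in D1_infiltrating 1 and 2, 600 and 291 CPM in D2_infiltrating 1 and D2_mixed 2, and 513 and 755 CPM in D3_conflict 1 and D3_infiltrating 1. The other cells of the same libraries held 3.17 to 169 CPM, so every library of the cluster lay above every library of the other cells. The leading genes were picked by these same ratios, and the share of all genes that separate in this way was not counted. The median log2 ratio was 3.38 (SD 1.18, n = 6).

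Hp, which encodes the hemoglobin-binding protein haptoglobin, stood at 1254, 635, 578, 1047, 1201 and 881 CPM in the 6 libraries in the same order, against 103 to 199 CPM in the other cells (2.57, SD 0.34). Vcan, the gene of the matrix proteoglycan versican, stood at 323, 585, 501, 467, 374 and 507 CPM against 33.6 to 247 CPM (2.43, SD 0.99). In both genes the libraries of the cluster and those of the other cells did not overlap, which their selection by ratio favours. The share of all genes that do so was not counted.

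Plac8, a gene of immature and Ly6C-high myeloid cells, stood at 2266, 1027, 1260, 1328, 2510 and 2665 CPM against 121 to 673 CPM (2.26, SD 0.58). Btg2, an antiproliferative immediate early gene, had a median ratio of 3.03. Ifitm6 had 2.96, Id3, which encodes an inhibitor of helix-loop-helix factors, 2.90, and Trem1, an amplifying receptor of myeloid inflammation, 2.10. Id3 was uneven: it stood at 4.25 CPM in D2_mixed 2 and at 51.1 to 101 CPM in the other 5 libraries. Others of the 20 highest genes were Gm9733, Lrg1, Dmkn, Cytip, a second line of the duplicated symbol Arhgap26, Tppp3, Smox, Plcb1, Phlda1, Uck2 and Klra2, with median ratios of 2.10 to 2.69. The next gene below the 20 was Kdm6b, a histone demethylase gene, at 179 CPM in the cluster and 22.9 CPM in the other cells.

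The proximal promoters of the 3 highest genes are printed because these genes lead the ranking. Sequences are from RefSeq (GRCm38.p6), the 250 bases before the annotated start, 5′ to 3′ on the strand of the gene. Capitals mark GGAAGT or its complement ACTTCC, a core bound by the myeloid factor PU.1.

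Il1b (chr2:129371140-129371389, minus strand): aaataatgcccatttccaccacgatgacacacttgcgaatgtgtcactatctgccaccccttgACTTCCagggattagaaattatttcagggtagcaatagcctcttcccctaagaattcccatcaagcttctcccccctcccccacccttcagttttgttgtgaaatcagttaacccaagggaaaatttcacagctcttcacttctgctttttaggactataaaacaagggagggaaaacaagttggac
Btg2 (chr1:134079156-134079405, minus strand): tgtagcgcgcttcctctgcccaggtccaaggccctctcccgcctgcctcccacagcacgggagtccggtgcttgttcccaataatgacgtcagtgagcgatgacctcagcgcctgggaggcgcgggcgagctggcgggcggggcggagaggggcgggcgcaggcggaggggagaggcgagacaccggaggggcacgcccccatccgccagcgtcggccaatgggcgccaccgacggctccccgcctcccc
Ifitm6 (chr7:141016893-141017142, minus strand): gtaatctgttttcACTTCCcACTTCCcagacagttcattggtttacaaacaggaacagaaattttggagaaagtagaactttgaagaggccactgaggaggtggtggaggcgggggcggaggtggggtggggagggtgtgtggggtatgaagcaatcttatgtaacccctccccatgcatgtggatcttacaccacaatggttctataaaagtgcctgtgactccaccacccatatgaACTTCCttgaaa

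Il1b holds 1 such match and Ifitm6 holds 3, of which 1 ends 7 bases before the RefSeq start, and Btg2 holds none. The Ifitm6 stretch lies within the GENCODE M21 gene (chr7:141015699-141017924, minus strand), so the annotations differ on where this gene starts. RefSeq promoters were matched for 14 of the 20 highest genes, and 4 of the 14 (Il1b, Ifitm6, Lrg1 and Trem1) hold the core on either strand. Among the 10 lowest genes 8 were matched and 5 hold it, and of all 32851 promoters 19.7% do. The letters TGANTCA (AP-1) were found in 1, TTGCNNAA (C/EBP) in 4, the interferon response core in 1 and the NF-kB motif in 0 of the 14. These letters are found in 6.75%, 9.56%, 2.98% and 0.980% of all promoters. Motif matches may overlap and are a description.

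**Figure D2:**
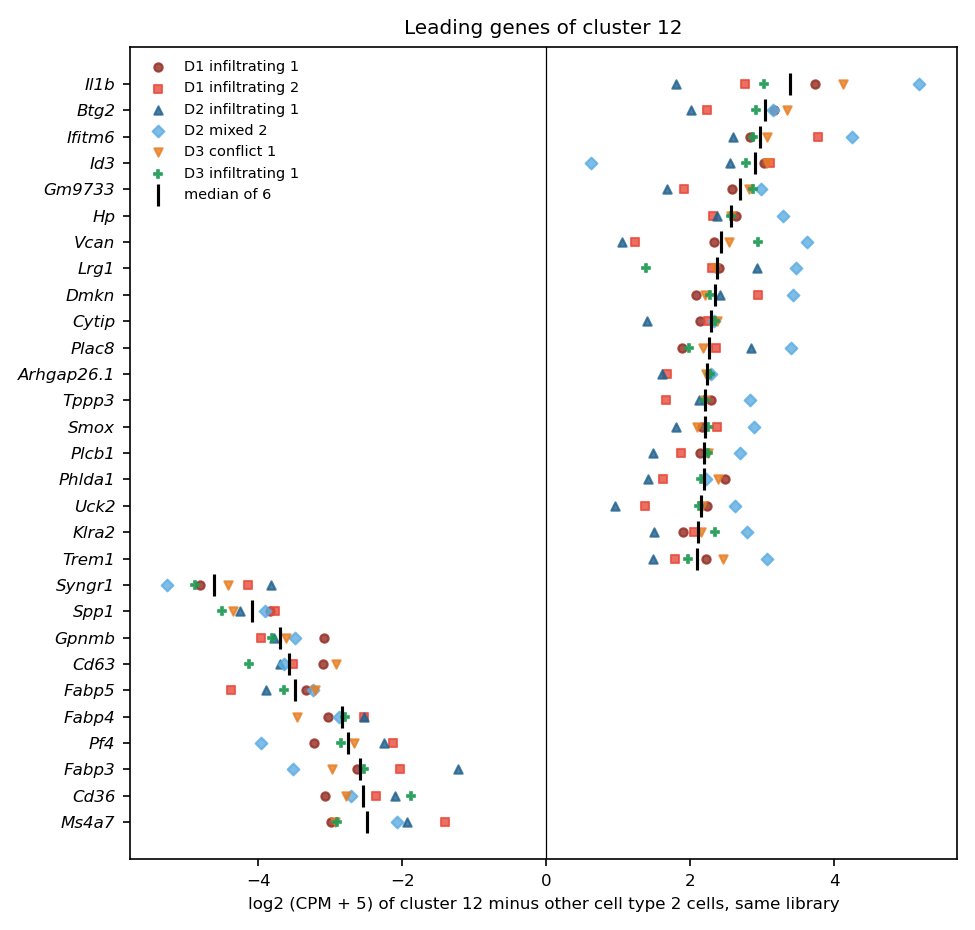
Log2 ratio of cluster 12 to the other cell type 2 cells of the same library (horizontal axis, log2 of CPM + 5) for genes among the 20 highest and the 10 lowest. Each symbol is 1 of 6 libraries and the black bar is their median. The medians run from 3.38 for Il1b to 2.10 for Trem1 and from -4.61 for Syngr1 to -2.49 for Ms4a7.

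The 10 lowest genes included the fatty acid binding protein genes Fabp3, Fabp4 and Fabp5. Spp1, the gene of osteopontin, stood at 2154, 2645, 1232, 1984, 1436 and 587 CPM in the 6 libraries of the cluster and at 13427 to 36128 CPM in the other cells (median log2 ratio -4.08, SD 0.31). Fabp5, which encodes a fatty acid binding protein, stood at 424, 186, 163, 801, 462 and 174 CPM against 2229 to 7641 CPM (-3.49, SD 0.46). Gpnmb, a glycoprotein gene of lipid-laden macrophages, stood at 105, 18.6, 15.7, 164, 106 and 92.0 CPM against 279 to 1888 CPM (-3.69, SD 0.31). Neither population overlapped the other in any of the 3 genes, which their selection by ratio favours. For all genes the share without overlap was not counted.

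Syngr1, which encodes a vesicle membrane protein, had the lowest ratio, -4.61, with 1.43 to 14.9 CPM in the cluster and 99.4 to 757 CPM in the other cells. Cd63, a tetraspanin gene of late endosomes, had -3.58. Fabp4 (-2.84), Pf4 (-2.76), Fabp3 (-2.58), the scavenger receptor gene Cd36 (-2.54) and Ms4a7 (-2.49) complete the 10 lowest.

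At equal depth the shares of cells with a UMI of Spp1 or Gpnmb were close to those in another cell type. Each cell was thinned to 1500 UMIs, which left out 6 of the 2005 cells of the cluster and 193 of the 2072 cells of cell type 4 in the 6 libraries. Cell type 4 is neutrophil-like, with 46832 CPM of S100a8, 36108 CPM of S100a9 and 884 CPM of Cxcr2 over all its cells. A UMI of Spp1 was found in 21.2% of thinned cells of the cluster (25.8% unthinned, median 9589 UMIs). It was found in 22.7% of the neutrophil-like cells (26.6% unthinned, median 2152 UMIs), which serve as a comparison. Free RNA itself was not estimated. For Gpnmb the thinned shares were 8.45% and 8.83% (20.05% and 11.2% unthinned). Pooled over the 6 libraries, the thinned shares of Spp1 and Gpnmb were at or below those of the neutrophil-like cells and are not read as expression. The source of these UMIs was not tested, and no share per library was taken for the neutrophil-like cells. The unthinned Gpnmb share was above theirs, at a greater depth. By library the thinned Spp1 share of the cluster ran from 8.13% in D3_infiltrating 1 to 28.0% in D1_infiltrating 1, above the pooled 22.7%. For Gpnmb it reached 12.04% in D3_conflict 1, above the pooled 8.83%. Fabp5 was found in 16.7% of thinned cells of the cluster and 13.9% of the neutrophil-like cells (27.8% and 18.2% unthinned). Cluster 11 had 70.0% for Spp1, 46.2% for Gpnmb and 55.3% for Fabp5.

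Monocyte genes were found in many cells of the cluster at the same depth. Plac8 was found in 79.6% of its thinned cells (94.2% unthinned) and 9.69% of the neutrophil-like cells (13.7% unthinned). Ccr2 was found in 50.4% (86.1% unthinned) and 2.5% (3.47%), Vcan in 39.0% (78.4%) and 1.22% (2.03%), and Ly6c2 in 44.0% (76.9%) and 9.69% (13.2%). The neutrophil-like cells were nearer for Hp, 62.7% (85.2%) and 41.6% (45.1%), and Chil3, 68.4% (73.3%) and 48.1% (53.1%). For Btg2 they had the larger thinned share, 30.8% (40.4%) against 26.2% (56.9%) in the cluster. Il1b was found in 24.8% of the thinned cells (42.6% unthinned), a share below that in the neutrophil-like cells, 32.9% (39.0% unthinned), which express the gene themselves. Between the 6 libraries the thinned share ran from 56.3% to 86.2% for Plac8 and from 20.8% to 52.6% for Ly6c2, with both lowest values in D1_infiltrating 2 and both highest in D3_conflict 1.

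Both monocyte marker lists were higher in the cluster than in the other cell type 2 cells. Of the 8 classical monocyte markers, 7 were higher in the cluster in 6 of 6 libraries, among them Ly6c2 (median log2 ratio 1.27), Ccr2 (1.02), Plac8, Chil3 (1.37), Hp and Vcan. The exception was F13a1 (0.22), the gene of a coagulation factor chain. The summed level of the 8 markers was 8625 to 12723 CPM in the 6 libraries. Of the 3 patrolling monocyte markers at 20 CPM or more, 2 were higher in 6 of 6 libraries, Nr4a1 (1.63) and the integrin gene Itgal (1.13). The summed level of all 8 patrolling markers was 117 to 275 CPM in the cluster and 35.9 to 140 CPM in the other cells, and higher in the cluster in each library. Of the 9 macrophage markers, 6 were lower in 6 of 6 libraries, among them Mertk (-1.88), a receptor for dying cells, and C1qb (-2.03), a complement subunit gene. Another 1 was higher in 6 of 6.

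Marker lists of other cell types differed in level. Border macrophage markers summed to 177 to 595 CPM in the 6 libraries, dendritic cell markers to 130 to 234 CPM, microglia markers to 150 to 213 CPM and oligodendrocyte markers to 52.8 to 91.3 CPM. In the other cell type 2 cells these lists summed to 394 to 1969, 210 to 343, 308 to 717 and 49.1 to 137 CPM. T cell, mast cell, neuron, and fibroblast and pericyte lists summed to at most 6.29 CPM in any of the 6 libraries. Among neutrophil markers Ly6g was at 0.0504 CPM and S100a8 at 123 CPM over all cells of the cluster, against 107 CPM for S100a8 in the other cell type 2 cells. The neutrophil list summed to 62.0 to 416 CPM and the B cell list to 7.87 to 60.4 CPM, of which Ighm gave 35.9 CPM over all cells while Ms4a1 was at 0. All 10 mitosis genes lay under 5 CPM.

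**Figure D3:**
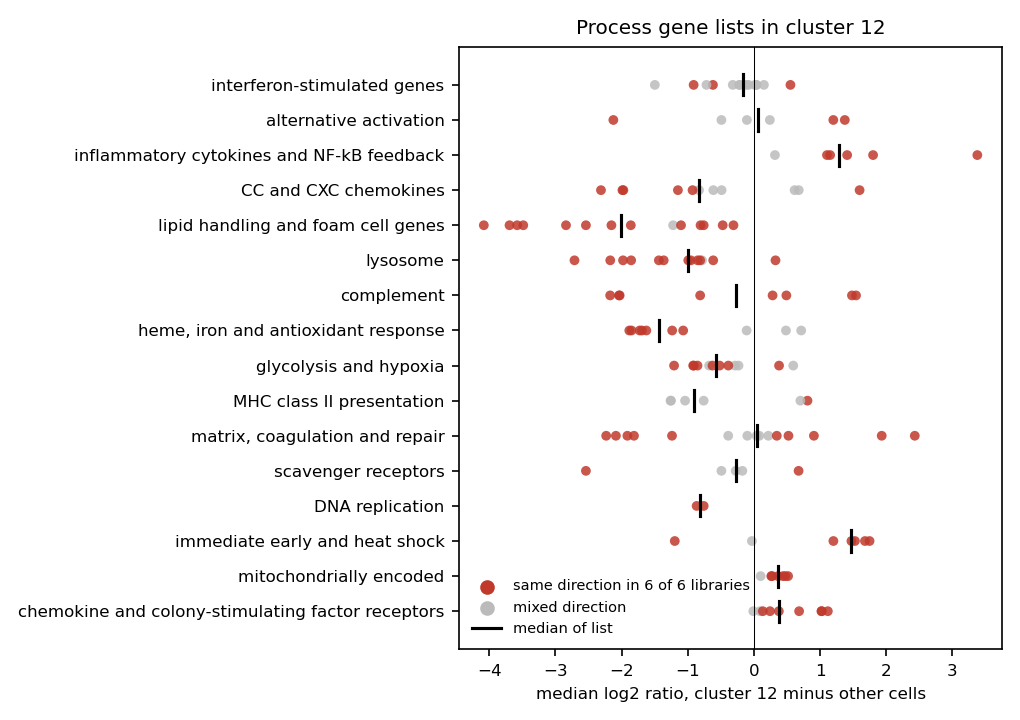
Median log2 ratio over 6 libraries of each gene at 20 CPM or more (points, horizontal axis) in 16 process lists (rows), cluster 12 against the other cell type 2 cells. Red points have the same direction in 6 of 6 libraries, grey points do not, and black bars give the list median, which is 1.47 for the immediate early list and -2.01 for the lipid list.

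Most cytokine, feedback and immediate early genes were higher in the cluster. Of 6 genes of the inflammatory cytokine and NF-kB feedback list at 20 CPM or more, 5 were higher in 6 of 6 libraries and none lower (list median 1.28). Besides Il1b these were Cd83 (1.80), a surface protein gene, Nlrp3 (1.41), the sensor of an inflammasome, and the inhibitor genes Nfkbia (1.15) and Nfkbiz (1.10). Tnf, the exception, had a median ratio of 0.32 at 34.4 CPM in the cluster. Of 7 immediate early and heat shock genes, Egr1 (1.75), Dusp1 (1.68), Junb (1.53), Fos (1.47) and Ier2 (1.20) were higher and Atf3 (-1.20) lower in 6 of 6 libraries. Of 7 mitochondrially encoded genes, 6 were higher in 6 of 6 (list median 0.36). The median mitochondrial share of UMIs was also higher and the median UMI count lower than in the other cells of each library, for example 1.24% against 0.878% and 10939 against 12369.5 UMIs in D1_infiltrating 1. Their part in these ratios was not tested.

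Most receptors that bring monocytes into tissue or sustain them were higher. In the list of 9 chemokine and colony-stimulating factor receptors, 7 were higher in 6 of 6 libraries, among them Ccr1 (1.12), Ccr2 (1.02) and Csf2rb (1.02), the shared beta chain of the GM-CSF receptor. Cx3cr1 (0.09), the fractalkine receptor gene whose locus drives Cre, was higher in 4 and lower in 2.

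Chemokine genes were lower or differed between libraries, apart from Cxcl2. Of 11 CC and CXC chemokine genes at 20 CPM or more, 5 were lower in 6 of 6 libraries and 1 was higher (list median -0.83). Ccl7, a CCR2 ligand gene, stood at 259 to 800 CPM in the cluster and 991 to 3906 CPM in the other cells (-1.99). Ccl12 had -2.31 and Ccl24 -1.97. Ccl2, the principal CCR2 ligand gene, had a median ratio of -0.83 but reached 3407 CPM in the cluster against 3388 CPM in the other cells in D2_mixed 2. Cxcl2, a neutrophil-attracting chemokine gene, was the one higher (1.60).

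Lipid, lysosome and iron genes were lower almost throughout. Of 14 lipid-handling and foam cell genes, 13 were lower in 6 of 6 libraries (list median -2.01), and Apoe (-1.22), the exception, was level in D2_infiltrating 1. Of 13 lysosome genes, 11 were lower, among them the cathepsin genes Ctsd (-2.17) and Ctsb (-1.86), and Lamp2 (0.33) was higher. Of 10 heme, iron and antioxidant genes, 7 were lower, among them Fth1 (-1.88) and Ftl1 (-1.63), the ferritin chain genes, and Hmox1 (-1.24), which encodes heme oxygenase 1.

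Complement genes were higher or lower in equal number. Of 8 complement genes, 4 were higher in 6 of 6 libraries, among them C3 (1.48), the regulator gene Cfp (0.28) and the receptor gene C5ar1 (0.49), whereas C1qa (-2.04), C1qb (-2.03), C1qc (-2.17) and C3ar1 (-0.81) were lower. The C1qa ratio was uneven, from -6.46 in D2_mixed 2 to -0.60 in D2_infiltrating 1. In the matrix, coagulation and repair list of 15 genes, 5 were higher and 5 lower in 6 of 6 libraries, beside 26.3% and 27.0% of all genes. Mmp19 (1.93), a matrix protease gene, Vcan, Tgfb1 (0.91) and Thbs1 (0.52), the thrombospondin 1 gene, were among the higher, and F7 (-2.23), Timp2 (-2.09) and Igf1 (-1.91) among the lower.

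The class II genes differed between libraries. H2-Aa, a chain of the MHC class II molecule, stood at 785 and 1206 CPM in the cluster in D1_infiltrating 2 and D2_infiltrating 1, above the 329 and 593 CPM of the other cells. In the other 4 libraries it stood at 147 to 549 CPM, below the 384 to 1773 CPM of the other cells. H2-DMa, which loads peptide, was higher in 6 of 6 (0.81).

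By the profile over 8220 genes, the cluster was nearest to cluster 11 (Pearson r 0.95, 4504 cells), then to cluster 8 (0.919, 1735 cells) and cluster 13 (0.908, 234 cells) among the clusters of cell type 2. Against cluster 11 within the 6 libraries, the monocyte genes remained higher, with median ratios of 3.49 for Il1b and 2.47 for Hp. Spp1 (-4.04), Fabp5 (-3.65) and Ccl7 (-2.32) were lower. Cluster 11 made up 61.0% to 73.8% of the other cell type 2 cells in the 6 libraries.

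Cluster 13 was close to cluster 12 in some classical monocyte genes and not in others. Over all cells, Plac8 stood at 2253 CPM in cluster 12 and 2805 CPM in cluster 13 and Hp at 1057 and 1224 CPM, whereas Vcan stood at 408 and 157 CPM. At equal depth Ly6c2 was found in 44.0% of cells of cluster 12 and 20.5% of cluster 13 (76.9% and 36.7% unthinned). In the 3 libraries with at least 20 cells of both, the patrolling monocyte markers were lower in cluster 12: the median ratio was -4.98 for Cd300e, -3.53 for Ace, -3.01 for Treml4 and -2.44 for Nr4a1, the nuclear receptor gene required by patrolling monocytes. Higher in cluster 12 in those 3 libraries were Ccl2 (6.78), Il1rn (4.69), which encodes the interleukin-1 receptor antagonist, Slc7a11 (4.54), a cystine transporter gene, Cxcl2 (4.51) and Thbs1 (3.52). Ccl2 stood at 2120 CPM in cluster 12 and 10.8 CPM in cluster 13 over all cells. The lower Spp1 of cluster 12 holds against the macrophage clusters and reverses against cluster 13, where it stood at 108 CPM.

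**Figure D4:**
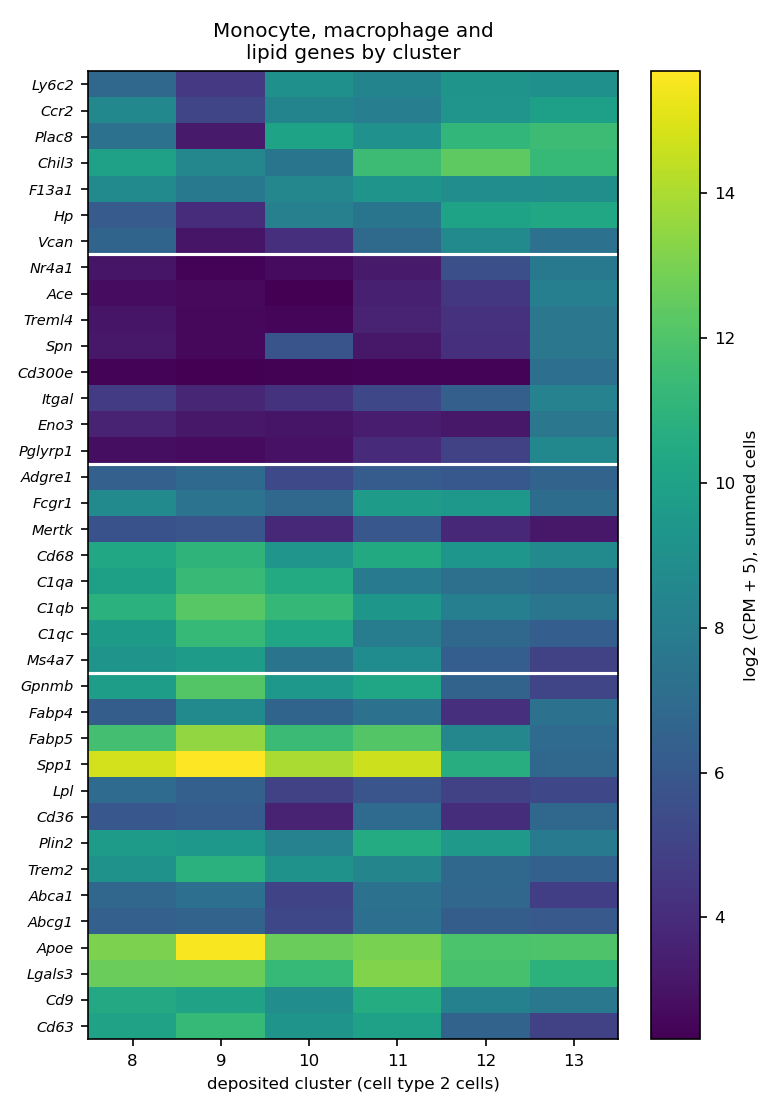
Levels (colour, log2 of CPM + 5 over summed cells) of classical monocyte, patrolling monocyte, macrophage and lipid genes (rows, blocks separated by white lines) in clusters 8 to 13 of cell type 2 (columns). Patrolling markers are lower in cluster 12 than in cluster 13, where Ace stands at 264 CPM against 17.5 CPM, and Spp1 is at 26255 CPM in cluster 11 and 1576 CPM in cluster 12.

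The design asks how the state changed between D1, D2 and D3. Counts of the cluster were summed per library and compared with edgeR's quasi-likelihood test, with p-values adjusted by Benjamini-Hochberg over all genes tested. D2 (2 libraries) was compared with D1 (2 libraries), and the D3 group held D3_infiltrating 1 and D3_conflict 1. No gene passed an adjusted p of 0.05: 0 of 8293 (0.0%) for D2 against D1, 0 of 8769 (0.0%) for D3 against D1 and 0 of 8769 (0.0%) for D3 against D2. At an unadjusted p under 0.05 there were 236 (2.85%), 439 (5.01%) and 543 (6.19%) genes, and DESeq2 called 2 (0.0241%), 0 (0.0%) and 14 (0.16%). The counts changed when 1 library was left out, and where that left 1 library at a time point it was assumed to vary like the other groups. D2 against D1 had 37 without D1_infiltrating 2, and D3 against D2 had 20 without D1_infiltrating 1, 23 without D1_infiltrating 2, 33 without D2_mixed 2 and 2 without D3_conflict 1. D3 against D1 had 8 without D1_infiltrating 1 and 2 without D3_conflict 1, and without D2_infiltrating 1, whose sex label and code differ, all 3 comparisons had 0.

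Of the 14 genes that DESeq2 called for D3 against D2, 8 were higher and 6 lower at D3. The higher included the interferon-stimulated genes Cxcl10, Ifit1 and Ifit2, and Ccl4, and the lower included Sdc4 and Cfp. Cxcl10, which encodes an interferon-induced chemokine, stood at 267 and 63.5 CPM at D1, 8.65 and 4.25 CPM at D2 and 303 and 274 CPM at D3. Both D2 libraries lay below the other 4. The log2 fold change was -4.63 (SE 0.80) for D2 against D1, with an edgeR adjusted p of 1.00, and 5.17 (SE 0.74) for D3 against D2, with an edgeR adjusted p of 0.0728. Over the alternatives the latter adjusted p ran up to 0.999, with a pool term. It was under 0.05 with DESeq2 and with a sex term, among others. For D2 against D1 edgeR called Cxcl10 with no expression filter, with a minimum of 10 cells and with a sex term, and DESeq2 did not.

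Ccl4, which encodes a CC chemokine, stood at 133 and 83.5 CPM at D1, 17.3 and 8.50 CPM at D2 and 140 and 102 CPM at D3. Its log2 fold change for D2 against D1 was -3.01 (SE 0.43, edgeR adjusted p 0.489). With the sex label as a term edgeR called Ccl4 and Cxcl10, and no other gene, for D2 against D1 and for D3 against D2. That label conflicts with the deposited code in D2_infiltrating 1. Ifit1, an antiviral gene, stood at 135 and 119, then 10.2 and 42.5, then 176 and 217 CPM at the 3 time points. DESeq2 called Ccl4 and Ifit1 for D2 against D1, with DESeq2 adjusted p of 0.0125 for Ifit1. For all 3 genes the 2 D2 libraries, which differ in strain, sort and pool, were the lowest of the 6. Ccl4 stood at 2359 CPM in the neutrophil-like cells, and the part of their RNA in the Ccl4 levels was not tested.

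Of 13 interferon-stimulated genes at a mean of 20 CPM or more, 4 had both D2 libraries below the other 4 libraries (Ifit1, Ifit2, Cxcl10 and Cmpk2), against 7.18% of 5095 genes, and none had both above, against 4.38%. For 6 of the 13 both D3 libraries lay above the other 4, against 9.13% of genes. Isg15, an interferon-induced ubiquitin-like gene, did not follow this order: at D2 it stood at 159 CPM in D2_infiltrating 1 and 871 CPM in D2_mixed 2, the lowest and the highest of the 6 libraries. Irf7, an interferon regulatory factor gene, was likewise lowest in D2_infiltrating 1 (99.9 CPM) and highest in D2_mixed 2 (370 CPM). The other cell type 2 cells of the D2 libraries also had the lowest Cxcl10 of the 6, 69.5 and 55.3 CPM against 216 to 668 CPM, so the order of Cxcl10 was not limited to the cluster. For Ccl4 the other cells stood at 134 and 92.2 CPM at D2 and 90.1 to 192 CPM at D1 and D3, with the groups overlapping.

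For Cxcl3 and Pf4, 2 libraries of different time points were the highest, which share the deposited pool and sex code. Cxcl3 stood at 900 and 625 CPM in D1_infiltrating 2 and D2_infiltrating 1, and at 94.5, 117, 53.5 and 28.3 CPM in D1_infiltrating 1, D2_mixed 2, D3_conflict 1 and D3_infiltrating 1. Pf4, which encodes platelet factor 4, stood at 373 and 303 CPM in the same 2 libraries and at 23.8 to 68.0 CPM in the other 4. For both genes the 2 D3 libraries were also the lowest of the 6. In the other cell type 2 cells, too, Cxcl3 was high in these 2 libraries, 2660 and 1771 CPM against 16.3 to 108 CPM. For D3 against D1 the log2 fold change was -3.66 (SE 0.90) for Cxcl3 and -2.97 (SE 0.79) for Pf4, with an edgeR adjusted p of 0.816 for both.

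**Figure D5:**
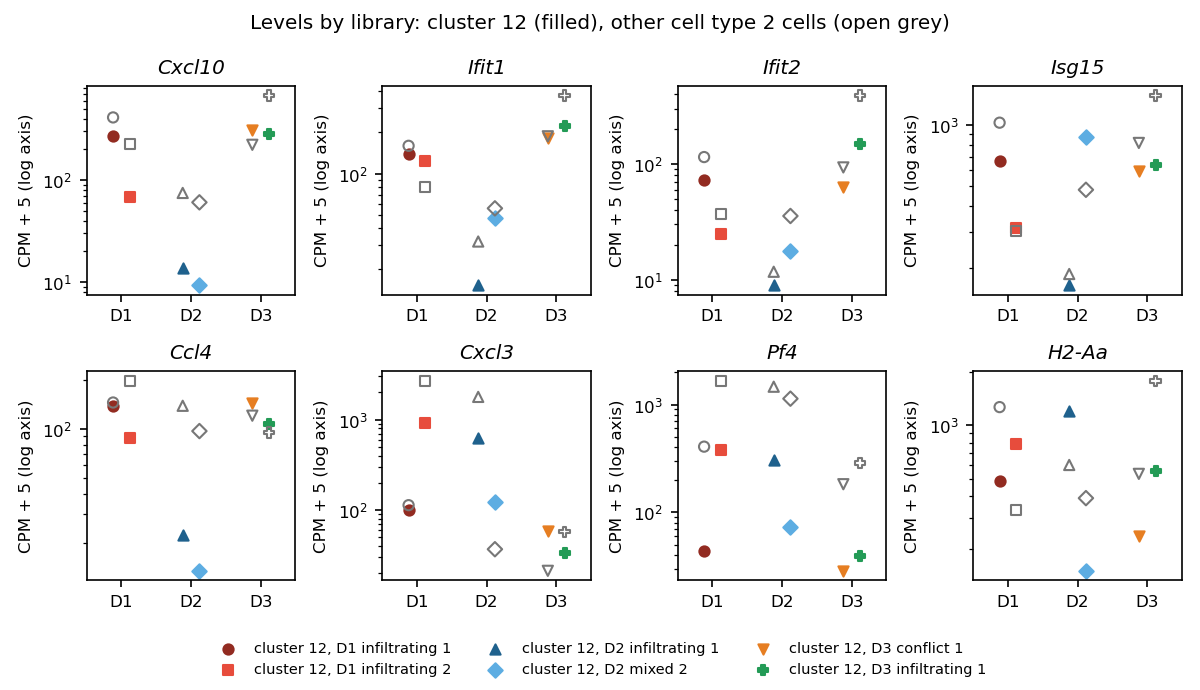
Level of 8 genes (vertical log axes, CPM + 5) by time point in the 6 libraries, with cluster 12 as filled symbols and the other cell type 2 cells of the same library as open grey symbols of the same shape. Both D2 libraries are lowest for Cxcl10 (8.65 and 4.25 CPM), Ifit1, Ifit2 and Ccl4 in cluster 12, whereas Cxcl3, Pf4 and H2-Aa are highest in D1_infiltrating 2 and D2_infiltrating 1.

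The monocyte identity genes did not pass the test between time points. Plac8 had a log2 fold change of -0.44 (SE 0.41) for D2 against D1 and 0.85 (SE 0.48) for D3 against D2, and Ly6c2 had -0.41 (SE 0.44) and 0.99 (SE 0.47). Both D3 libraries lay above the other 4 for 3 of the 8 classical monocyte markers, Plac8 and Ly6c2 among them, against 9.13% of genes. Of 10 chemokine genes, Ccl2, Cxcl2 and Cxcl3 had both D3 libraries below the other 4, against 4.55% of genes.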

How the data were processed

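The deposited counts are whole UMI counts per gene and cell, 1 table per library, made by the authors with Cell Ranger 3.1.0 on GRCm38 (mm10), per the submitters' processing notes; the cell filters are not given in the sources used here. The deposited cell table gives codes for cluster, cell type, pool, sex, sort and time, and the percent of mitochondrial counts. UMI and gene totals equalled the deposited values for all 30958 cells (lowest 713 UMIs). No cell was removed, doublets were not called and free RNA was not subtracted. The clusters are the authors' own.

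Counts were summed per library over the cells of the cluster and over the other cell type 2 cells. A sum needed 20 cells. Tests used edgeR 4.0.16 in R 4.3.3 (TMM, filterByExpr, quasi-likelihood, 2-sided, Benjamini-Hochberg) with time point as the term. DESeq2 1.42.0 was an alternative. The SE printed with an edgeR log2 fold change is its absolute value divided by the square root of the quasi-likelihood F statistic. The D2 against D1 fit held 5 libraries, D3_infiltrating 1 included. The planned D3 comparisons needed 2 libraries of D3 with uncontested labels, and only 1 had 20 cells, so D3_conflict 1, planned as an added alternative, was made part of the D3 group after the data were seen. Comparisons with D10 and D21 were not run because no library there held 20 cells. Libraries pool 1 to 3 mice, and the labels do not say whether libraries share mice, so p-values measure the spread between these libraries.

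Named genes were, by rule, the 20 highest and 10 lowest by median log2 ratio among those at 50 CPM or more and of the same sign in 6 of 6 libraries, up to 10 rises and 10 falls called per comparison, and members of fixed lists. The members and lists were chosen with earlier results of these data known. Genes named outside the rule, chosen after their values were seen, are Kdm6b and those called by DESeq2 alone. Coordinates of genes are from GENCODE M21 (29 of the 30 leading symbols matched). Values for the sex-linked genes and the reporter transgenes were not analysed here, and some genes of the lists and leading genes are not reported here. The tests were checked on simulated data.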

Additional observations from a re-analysis of the deposited data

Results flagged for a closer look

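Cells of the cluster also appeared in libraries that the comparisons did not use. The Ctrl libraries, of the mixed and resident sorts only and with no cell of cell type 2, held none of them among 1887 cells. In the 4 resident-sort libraries of D2, D3 and D10 the cluster made up 0.405% of cells (15 of 3705). Summed over these 15 cells (192837 UMIs), Plac8 stood at 2022 CPM, Ifitm6 at 384 CPM and Il1b at 218 CPM, with Spp1 at 3407 CPM and Ms4a7 at 503 CPM. Over the whole cluster Ms4a7, a macrophage gene, stood at 73.4 CPM.

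In the 7 mixed-sort libraries of D1 to D3 with fewer than 20 of its cells, the share was 0.170% (14 of 8220). In the 5 libraries of D10 it was 0.238% (9 of 3784), where Plac8 stood at 3665 CPM, Il1b at 476 CPM and Spp1 had 0 UMIs. These cells were too few to be tested.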

How the results depend on the processing

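No paired analysis was possible because the groups compared share no replicate numbers: none of the 6 libraries has a number in its title, and D3_mixed 3, which enters with a minimum of 10 cells, has the only one. The sex term below compares within the sex labels, of which each time point has 1 library each. For D2 against D1 the count of genes called was 2 with DESeq2 and with a sex term, 7 with a minimum of 10 cells, 13 with no expression filter, and 0 to 37 leaving out 1 library. For D3 against D1 it was 37 with no filter, 15 with a minimum of 10 cells, 15 without D1_infiltrating 2 and D2_infiltrating 1, and 0 to 8 leaving out 1 library. For D3 against D2 it was 14 with DESeq2, 144 with no filter, 50 with a minimum of 10 cells, 2 with a sex term, 1 with a sort term, 33 without the mixed-sort library, 29 without D1_infiltrating 2 and D2_infiltrating 1, and 0 to 33 leaving out 1 library. The cause of these changes was not tested. A sort term estimates D3 from D3_infiltrating 1 and a pool term from D3_conflict 1, and the pool term gave 0 calls in all 3 comparisons, with 288, 90 and 352 genes at an unadjusted p under 0.05. A fit without the infiltrating libraries and the comparisons with D10 and D21 were not run. The deposited sex code and the removal of that pair of libraries were chosen after seeing the data, as was resting the D3 comparisons on D3_conflict 1, whose addition had been listed as an alternative.

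For D3 against D1, where Cxcl10 had a log2 fold change of 0.53 and Ccl4 one of -0.05 (edgeR adjusted p 0.824 and 0.975), the sign of both turned. Cxcl10 had -0.18 without D1_infiltrating 2, with or without D2_infiltrating 1. Leaving out 1 library gave Cxcl10 up to 2.07 and Ccl4 down to -0.57. Ccl4 had 1.06 with a minimum of 10 cells, 0.32 with a pool term, 0.45 without D1_infiltrating 1 and 0.33 without D3_infiltrating 1.

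Of all cells, the cluster made up 27.2% of D1_infiltrating 1, 6.61% of D1_infiltrating 2, 14.9% of D2_infiltrating 1, 6.76% of D2_mixed 2, 20.7% of D3_conflict 1 and 12.7% of D3_infiltrating 1. Without D3_conflict 1 the median ratio was 3.02 for Il1b, 2.57 for Hp, 2.35 for Plac8 and -3.91 for Spp1. A pseudocount of 1 CPM moved 2 of the 30 leading ratios by at least the SD over the 6 libraries, 20 CPM moved 12, and summing all cells moved 6. Summed over all cells, some leading ratios reversed against a single cluster. Against cluster 13 these were Btg2 (-0.12), Ifitm6 (-0.32), Gm9733 (-1.23), Hp (-0.21), Cytip (-0.84), Plac8 (-0.32), Tppp3 (-0.70), Spp1 (3.81), Gpnmb (1.48), Cd63 (1.66), Fabp5 (1.53), Pf4 (3.61), Fabp3 (0.11) and Ms4a7 (1.41). Against cluster 3 they were Pf4 (0.075) and Cd36 (0.18), against cluster 10 Pf4 (0.56) and Cd36 (0.42), and against cluster 14 Phlda1 (-0.023) and Fabp5 (0.36). No leading ratio reversed against clusters 2, 8, 9 or 11. The 51 cells of D2_mixed 2 (470730 UMIs) limit the precision at D2.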
